A study of Mus musculus with 12 samples.

Results

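The genes described here are 8 genes of the SUMO pathway, *Sumo2*, *Sumo3*, *Sae1*, *Uba2*, *Pias1*, *Pias4*, *Senp1* and *Senp2*, out of 21464 mouse protein-coding genes with a known start and strand. They were taken by name from the RefSeq gene table of mm10 (GRCm38.p6), and all 8 were found in it. At each gene, an H3K36ac peak was counted as a promoter peak when any base of it lay within 3000 bp of the gene start. H3K36ac, the acetylation of lysine 36 of histone H3, had been profiled by chromatin immunoprecipitation and sequencing (ChIP-seq) in spermatogonia from *Sirt7*-/- and WT testes. SIRT7 is a deacetylase of the sirtuin family that acts on this residue. There were 3 ChIP samples of each genotype, numbered as replicates 2, 3 and 4, each with its own input, and each deposited list holds the peaks of 1 sample.

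Both genotypes shared the same inbred strain background, and *Sirt7*-/- mice lacked the gene in the whole body, so that somatic cells of the testis lacked it too. Each sample held 50000 cells of Pnd 5 testes, which had been enriched for spermatogonia by differential plating and not sorted. The lists give no transcript level, so they cannot check the loss of *Sirt7*, and no promoter peak was called at *Sirt7* in any of the 6 samples. Markers of undifferentiated spermatogonia bore a promoter peak in at least 1 sample at 4 of 10 genes, among them *Zbtb16*, which encodes PLZF. The counts were 1 of 5 for general germ cell markers, 2 of 6 for Sertoli cells (*Sox9* and *Dhh*), 0 of 5 for Leydig cells and 0 of 2 for peritubular cells, and no marker on these lists was called in a WT sample. Over all genes the shares were 19.7% in at least 1 sample and 5.12% in at least 1 WT sample, so these counts say little about cell identity. The study checked the enriched cells for PLZF by flow cytometry, and most were positive. The peak lists hold no somatic share per sample, and its part in the results was not tested.

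The lists differed widely in length. Those of *Sirt7*-/- held 2840, 2045 and 2591 peaks (replicates 2, 3 and 4) and those of WT held 906, 64 and 294 (same order). WT replicate 3 thus stood apart from the other WT samples as well. Within *Sirt7*-/-, the clean reads of the ChIP libraries ordered the lists, with replicate 2 the deepest and replicate 3 the shallowest. In WT the deepest library, replicate 2, had the longest list, but the shallowest, replicate 4, had more peaks than replicate 3. Over all 6 samples the order did not hold either, as WT replicate 2 was the deepest and had fewer peaks than any *Sirt7*-/- list. WT replicate 3, with the fewest peaks, was sequenced about as deeply as *Sirt7*-/- replicate 4 and more deeply than *Sirt7*-/- replicate 3. The part of depth in the list lengths was not tested. The files hold no read counts, so the reads left after filtering and the share of them in peaks were not analysed here. Since long lists call more genes of any kind, counts of SUMO genes are set beside the share of all protein-coding genes called by the same rule.

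SUMO proteins are small relatives of ubiquitin that are joined to lysines of other proteins and change their partners, location or stability. The SAE1 and UBA2 heterodimer activates SUMO, ligases such as the PIAS proteins favour its transfer to particular substrates, and SENP proteases mature SUMO precursors and remove SUMO from its targets. In male germ cells, SUMO is known from the sex body, the synaptonemal complex and sites of DNA damage. *Sumo2* and *Sumo3* encode nearly identical modifiers, so that they form the closest pair of genes among the 8.

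RefSeq promoter windows of GRCm38.p6, from 250 bases before to 50 after a start, were at hand for 6 of the 8 genes. The bases upstream of the start are shown for *Sumo2*, the gene called in the most samples, for its paralogue *Sumo3*, which was called in none, and for *Uba2* and *Senp1*, which were called in the same pair of samples. They lie at chr11:115536231-115536480 (minus strand) for *Sumo2*, chr10:77605847-77606096 (plus strand) for *Sumo3*, chr7:34168591-34168779 (minus strand) for *Uba2* and chr15:98093570-98093819 (minus strand) for *Senp1*. Each reads 5′ to 3′ along the gene's strand, and capitals mark matches, on either strand, to the letters GGGCGG (the GC box of Sp and KLF factors), TGACG (core of the cAMP response element) or CCAAT (NFY).
Sumo2: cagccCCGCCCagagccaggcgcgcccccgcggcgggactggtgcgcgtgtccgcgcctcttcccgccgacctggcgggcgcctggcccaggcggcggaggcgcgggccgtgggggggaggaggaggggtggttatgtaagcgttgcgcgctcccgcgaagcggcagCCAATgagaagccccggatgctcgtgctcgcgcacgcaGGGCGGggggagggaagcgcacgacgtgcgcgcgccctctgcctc
Sumo3: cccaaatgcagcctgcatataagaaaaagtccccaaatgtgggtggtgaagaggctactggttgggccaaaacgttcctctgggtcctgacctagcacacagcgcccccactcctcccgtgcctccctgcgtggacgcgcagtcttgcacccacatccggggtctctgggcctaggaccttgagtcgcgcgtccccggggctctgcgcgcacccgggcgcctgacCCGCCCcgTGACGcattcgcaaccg
Uba2: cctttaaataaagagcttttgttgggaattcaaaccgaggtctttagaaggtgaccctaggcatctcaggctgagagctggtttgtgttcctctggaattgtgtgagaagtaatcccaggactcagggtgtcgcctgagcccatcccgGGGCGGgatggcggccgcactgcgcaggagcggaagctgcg
Senp1: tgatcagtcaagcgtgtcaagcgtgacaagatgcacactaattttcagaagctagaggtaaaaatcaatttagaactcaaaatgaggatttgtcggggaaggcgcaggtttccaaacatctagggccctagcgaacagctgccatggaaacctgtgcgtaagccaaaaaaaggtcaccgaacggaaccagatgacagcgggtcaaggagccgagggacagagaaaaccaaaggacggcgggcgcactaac

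The *Sumo2* window was among the richest in CpG. Over the whole 300 bases it held 76.3% G and C and 42 CpG dinucleotides, more CpG than 96.3% of the 17491 windows in the table, whose medians were 56.3% and 13. *Sumo3*, without a called peak, had 67.7% G and C and 31 CpG, also above the medians. *Senp1*, with peaks in 2 samples, had 50% and 15, and *Uba2* had 61.7% and 21. *Pias1* held 28 CpG and *Senp2* held 25. CpG content of these windows therefore did not order the 6 genes by the number of samples called. The windows of *Uba2* and *Senp2* belong to starts 61 and 52 bp from the gene starts used for peaks. The windows hardly reach the called peaks, which lay downstream of the starts, so the sequence under the peaks was not analysed here.

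GGGCGG was present 2 times at *Sumo2*, 1 time each at *Sumo3* and *Uba2*, 5 times at *Pias1* and 2 times at *Senp2*, and 46.3% of all windows held it. CCAAT was found among the 6 genes at *Sumo2* only, beside 39.2% of all windows, and TGACG at *Sumo3* (1 match) and *Senp2* (3 matches, of which a pair overlap on opposite strands), beside 23.8%. CCGGAAG (ETS factors) matched once at *Uba2* in bases downstream of its start, beside 11.9% of windows. AAGATGGC (core of the YY1 motif) matched once at *Pias1*, beside 3.21%, and GCATGCG (core of the NRF1 motif) once at *Senp2*, beside 4.49%. CACGTG (E-box) matched none of the 6 and was held by 7.91% of windows. The *Senp1* window held no match to any of the 7. These matches are letters in a window, and no factor binding was measured.

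In all, 5 of the 8 genes had a promoter peak in at least 1 of the 6 samples: *Sumo2*, *Uba2*, *Pias1*, *Senp1* and *Senp2*. The corresponding share over all protein-coding genes was 19.7%. *Sumo3*, *Sae1* and *Pias4* had none. Each of the 3 *Sirt7*-/- samples had 3 of the 8 genes called, although not the same ones. Replicate 2 had *Sumo2*, *Senp2* and *Pias1*, with 13.2% of all genes called. Replicates 3 and 4 both had *Sumo2*, *Uba2* and *Senp1*, with 9.73% and 11.7% of all genes called. In WT the single gene called was *Sumo2*, in replicate 2 (4.38% of all genes called) and replicate 4 (1.35%). WT replicate 3, with 0.317% of all genes called, had none. Thus 9 of 24 gene and sample combinations were called in *Sirt7*-/- and 2 of 24 in WT. *Sumo2* gave 3 of the 9 and both in WT. All genes showed a gap in the same direction, with 9.73% to 13.2% called per *Sirt7*-/- sample and 0.317% to 4.38% per WT sample.

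**Figure D1:**
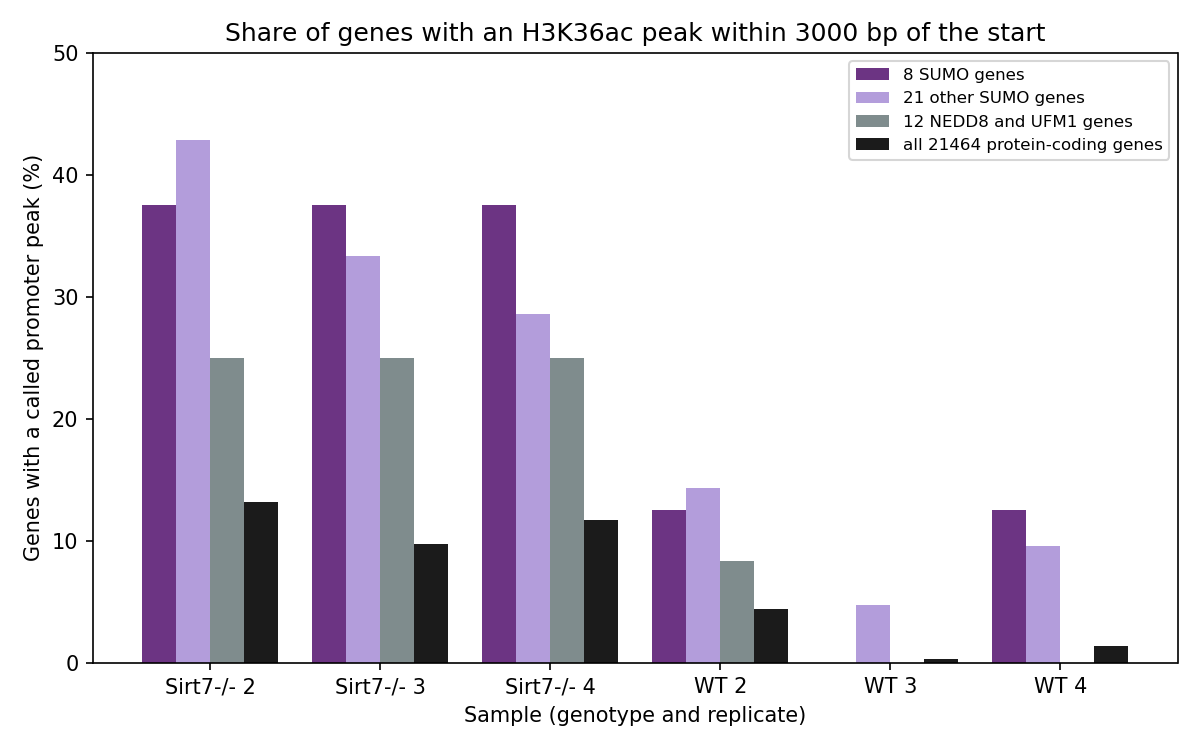
Percent of genes with a promoter peak (vertical axis) in each of the 6 samples (horizontal axis), for the 8 SUMO genes, 21 other SUMO genes, 12 NEDD8 and UFM1 genes and all 21464 protein-coding genes, with 1 bar per gene set. The 8 SUMO genes stood at 37.5% in each *Sirt7*-/- sample and at 12.5%, 0 and 12.5% in WT replicates 2, 3 and 4, while all genes ran from 0.317% to 13.2%.

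By genotype, all 5 of these genes were called in at least 1 *Sirt7*-/- sample (19.3% of all genes) and 1 of 8 in at least 1 WT sample (5.12%). The same gene, *Sumo2*, was the only member called in all 3 *Sirt7*-/- samples (5.09% of all genes) and in at least 5 of the 6 samples (0.648%). No member had a peak in every *Sirt7*-/- sample together with none in WT, a pattern that 525 of the 21464 genes (2.45%) had. The counts of the 8 genes stood above the background in every list but that of WT replicate 3. In WT replicates 2 and 4 this rested on *Sumo2* alone, since 1 call among 8 genes already makes 12.5%. The study displays *Sumo2* as a representative locus of these same data, so its place on the list was not independent of its peaks. With so few genes this is a description, and no test was made over the list.

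The question of the design is whether loss of SIRT7 changed H3K36ac at these genes. Fisher's exact test of samples called against not called (two-sided, 3 against 3) did not separate the genotypes at any of the 8. The exact p was 1 at *Sumo2* (3 *Sirt7*-/- and 2 WT samples), 0.4 at *Uba2* and at *Senp1* (2 and 0), and 1 at *Senp2* and *Pias1* (1 and 0). After Benjamini-Hochberg adjustment over all 21464 genes, each Fisher's exact p was 1. The smallest p that 3 against 3 samples allow is 0.1, and 525 genes reached it, so that neither a difference nor its absence could be shown at a single gene.

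*Sumo2*, which encodes a SUMO that can form chains, lies on the minus strand of chromosome 11 and has its start at 115536230. Its 5 peaks were nearly superimposed. They ran from 167 to 658 bp downstream of the start in *Sirt7*-/- replicate 2, from 44 to 702 bp in replicate 3 and from 130 to 597 bp in replicate 4. The WT peaks ran from 120 to 583 bp in replicate 2 and from 109 to 614 bp in replicate 4. All lay inside the gene, and whether they fall on exon or intron was not analysed here. A stretch of 417 bp, from 167 to 583 bp downstream, was covered in all 5 samples, and together the peaks covered 659 bp, which is the extent of the *Sirt7*-/- replicate 3 peak alone. In WT replicate 3 the nearest peak was 1852 kb away.

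Peak width is in bp in every list, but typical widths differed between the lists. The widths of the *Sumo2* peak are therefore set beside each list's median, and the test of them makes no allowance for that difference. Only samples with a called peak have a width. The *Sumo2* peak measured 492, 659 and 468 bp for *Sirt7*-/- (replicates 2, 3 and 4) and 464 and 506 bp for WT (replicates 2 and 4). The median widths of those lists were 480, 456 and 465 bp for *Sirt7*-/- and 373 and 297 bp for WT, so that peaks in general were narrower in the WT lists, while the *Sumo2* peak was wider than the median in all 5. The widths of the genotypes overlapped. The means were 540 ± 104 bp (SD, n = 3) and 485 ± 29.7 bp (SD, n = 2), a difference of 54.7 bp with an exact permutation p = 0.8 (two-sided, 10 assignments, smallest possible p 0.1). Without *Sirt7*-/- replicate 3 the difference was -5 bp, so its direction rested on that sample.

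The rank of the *Sumo2* peak within its list differed between samples of the same genotype. Fold enrichment, the signal over the sample's own input, was 3.30, 6.28 and 3.69 for *Sirt7*-/- (replicates 2, 3 and 4) and 4.20 and 5.24 for WT (replicates 2 and 4). The medians of those lists were 4.05, 4.68, 4.07, 4.43 and 5.00. The peak was therefore above its list's median in *Sirt7*-/- replicate 3 and WT replicate 4 and below it in the other 3. By fold it stood at rank 120 of 2045 in *Sirt7*-/- replicate 3, but at 2812 of 2840 in *Sirt7*-/- replicate 2, close to the bottom of that list. As fold is relative to each input, it was compared within lists and not between genotypes.

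**Figure D2:**
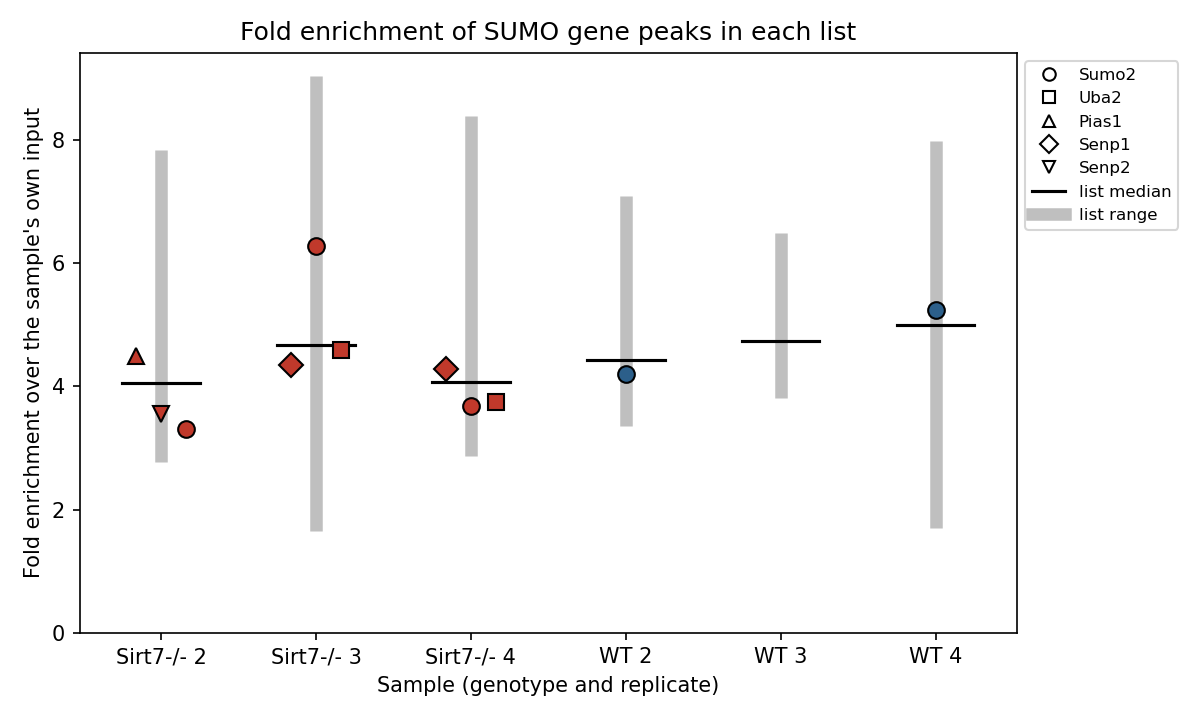
Fold enrichment over the sample's own input (vertical axis) of each SUMO gene peak in the 6 samples (horizontal axis), with symbols for genes, red for *Sirt7*-/- and blue for WT, a grey bar for the range of all peaks in that list and a black line for their median. *Sumo2* was far above the median in *Sirt7*-/- replicate 3 (6.28 against 4.68) and near the floor of the list in replicate 2 (3.30, where the lowest peak was at 2.78).

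*Uba2* and *Sae1* encode the catalytic and the partner subunit of the SUMO activating enzyme. *Uba2* (chromosome 7, minus strand, start at 34168590) was called in *Sirt7*-/- replicates 3 and 4. The peaks lay 117 to 718 bp and 145 to 526 bp downstream of the start, with a fold of 4.60 and 3.74, and the narrower was wholly inside the wider. Both were below their list's median fold, and by the authors' -log10 q they stood at 53.6% and 90.7% of the way down their lists. *Sae1* (chromosome 7, minus strand, start at 16387896) had no peak in the window or in the gene body in any sample. Its nearest peaks were 11.7 to 13.0 kb upstream in the same 5 samples that had a *Sumo2* peak, that is, in all but WT replicate 3. Those peaks lay by the start of *Zc3h4*, a gene named here after its values were seen.

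*Sumo3* (chromosome 10, plus strand, start at 77606097) likewise had no peak in its window or body in any sample. The nearest peak was 15.8 kb away, in *Sirt7*-/- replicate 2, and at least 188 kb away in the other samples. As *Sumo3* was never called, the paralogues differed wherever *Sumo2* had a peak, in 5 of 6 samples. Over all genes, 19.7% were called in at least 1 sample, so an uncalled gene was the common case. An uncalled gene may still carry signal below the calling threshold, which the lists do not hold.

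The ligase gene *Pias1* (chromosome 9, minus strand, start at 62980879) was called in *Sirt7*-/- replicate 2 only. Its peak lay 37 to 288 bp downstream, was 252 bp wide and had a fold of 4.50, above the list median of 4.05. A lncRNA gene, *Gm35574*, starts 365 bp from the *Pias1* start on the opposite strand and within 3000 bp of the peak, so the peak lay between starts that face each other. The other ligase, *Pias4* (chromosome 10, minus strand, start at 81167720), had no peak within 29.6 kb in any list.

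Of the proteases, *Senp1* (chromosome 15, minus strand, start at 98093569) was called in *Sirt7*-/- replicates 3 and 4, the same samples as *Uba2*. The peaks lay 542 to 772 bp and 329 to 750 bp downstream, the farthest from a start among the members, with a fold of 4.34 and 4.28. Both peaks also lay 208 to 438 bp and 230 to 651 bp downstream of the start of *Pfkm*, a phosphofructokinase gene on the plus strand whose start is 980 bp from that of *Senp1*. Their midpoints were nearer to *Pfkm*, and with each peak given to its nearest protein-coding start alone, *Senp1* had no peak and 4 of the 8 genes were called. The share of all genes under that rule was not analysed here. *Senp2* (chromosome 16, plus strand, start at 22009432) was called in *Sirt7*-/- replicate 2 only, 174 to 603 bp downstream, with a fold of 3.56, below the list median.

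**Figure D3:**
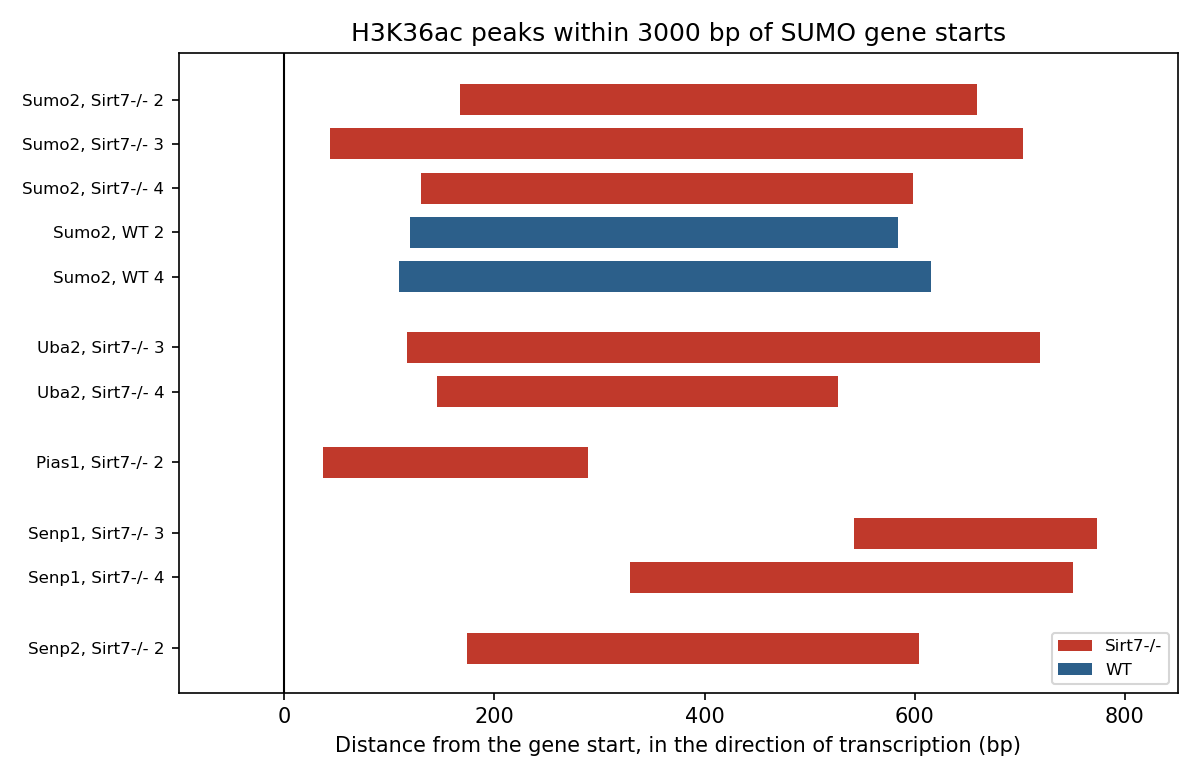
Extent of the 11 promoter peaks of 5 SUMO genes as distance in bp from the gene start, in the direction of transcription (horizontal axis), with 1 bar per gene and sample (vertical axis), red for *Sirt7*-/- and blue for WT. All bars start to the right of the vertical line at the gene start, and the 5 *Sumo2* bars share the stretch from 167 to 583 bp.

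Together, all 11 promoter peaks of the members lay wholly downstream of the start, between 37 and 772 bp. They came from 5 genes only, with 5 peaks at *Sumo2*, 2 each at *Uba2* and *Senp1* and 1 each at *Pias1* and *Senp2*. Peaks of 1 gene in several samples are not independent, so the counts below are a description. Among the 8802 pairs of a peak and a protein-coding gene in the 6 lists, 61.0% lay wholly downstream, 28.2% spanned the start and 10.8% lay upstream. Most of the 11 were not strong peaks of their lists. In fold, 7 of 11 were below the list median, and 6 of 11 had a -log10 q under 2. The median rank by -log10 q was 66.7% of the way down a list, with a range from 5.87% (*Sumo2* in *Sirt7*-/- replicate 3) to 90.7% (*Uba2* in *Sirt7*-/- replicate 4). Widths ran from 231 to 659 bp with a median of 464 bp.

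The calls therefore depended on how far down each list was read. When peaks under a -log10 q of 2 were left out, *Sumo2* was called in 1 sample of each genotype and *Uba2*, *Pias1* and *Senp1* in 1 *Sirt7*-/- sample each, beside 14.0% of all genes in at least 1 sample. With at most the best 294 peaks of each list, the length of the WT replicate 4 list (WT replicate 3 kept its 64), *Sumo2* remained in 1 *Sirt7*-/- and 1 WT sample and no other member was called, beside 4.65% of all genes. At 64 peaks each, the length of the shortest list, none of the 8 was called, beside 1.41%. Only at 64 peaks were all 6 lists of equal length, and with no member called there, that setting compares nothing between the genotypes.

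The remaining genes of the pathway were examined as a list of 21. A promoter peak was called in at least 1 sample at 12 of them, in at least 1 WT sample at 6 and in all 3 *Sirt7*-/- samples at 4, beside 19.7%, 5.12% and 5.09% of all genes. By sample, 9, 7 and 6 were called for *Sirt7*-/- (replicates 2, 3 and 4) and 3, 1 and 2 for WT (same order). The shares over all genes were 13.2%, 9.73% and 11.7%, and 4.38%, 0.317% and 1.35%. *Rnf4*, a ubiquitin ligase that reads SUMO chains, was called in WT replicate 2 and in every *Sirt7*-/- sample, with peaks 765 to 1413 bp wide, wider than any peak of the 8 genes.

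*Pias2*, a ligase of the PIAS family, and *Zfp451*, a ligase with a preference for SUMO2 and SUMO3, each had a peak in every *Sirt7*-/- sample and in none of WT. Fisher's exact p was 0.1 for each, the smallest possible, and the adjusted p was 1. *Ranbp2* and *Senp5* were each called in 1 *Sirt7*-/- and 1 WT sample, and *Senp6* in 2 and 1. The genes without a promoter peak in any sample included *Pias3*, *Zmiz1*, *Zmiz2*, *Trim28*, *Senp3*, *Senp7*, *Desi1* and *Desi2*. In a comparison list of 12 genes for the related modifiers NEDD8 and UFM1, 5 were called in at least 1 sample, 1 in a WT sample and none in all 3 *Sirt7*-/- samples, beside the same 19.7%, 5.12% and 5.09%.

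The pattern of *Sumo2*, called in all samples but WT replicate 3, was shared by 95 other protein-coding genes, and 20 genes were called in all 6. By the mean absolute difference in percent rank over those 5 lists, the closest were *Msantd2* (8.64 points), *Crebzf* (18.4), *Cand1* (20.7), *Vps54* (22.6) and *Ddx39b* (24.0). *Msantd2* stood at 18.3% in *Sirt7*-/- replicate 3 and at 62.0% and 68.5% in replicates 2 and 4, where *Sumo2* stood at 5.87%, 81.9% and 66.7%. Apart from *Msantd2*, even the nearest of these genes differed from *Sumo2* by 18.4 points on average.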

How the data were processed

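H3K36ac ChIP and input DNA of 50000 spermatogonia per sample were sequenced by the authors, with an acylated nucleosome panel added as a spike-in. Per the labels and the study's methods, reads were trimmed with Trim Galore (version 0.6.6), aligned to mm10 with Bowtie2 (2.4.4.1), filtered at a mapping quality of 30 and rid of duplicates with Sambamba. Broad peaks were called by the authors for each sample against its input with MACS2 (2.2.5) at a broad cutoff of 0.1. The deposited lists hold, for each peak, a fold enrichment (a ratio to input) and -log10 p and -log10 q values. These were used within a list only, since the lists hold no counts. The authors applied no spike-in scaling, because they found the spike-in barcode counts comparable among samples. Clean reads per library, stated in the study's methods, were used only to rank the libraries by depth. A gene without a peak has no value.

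Gene starts came from the RefSeq table of GRCm38.p6. Strand came from its promoter table for 17491 genes and from GENCODE vM39 for 3973, which left 21464 of 21883 protein-coding genes (98.1%). *Sae1* and *Pias4* were among those with a GENCODE strand. Peaks within 3000 bp of a start, by any base, were assigned to every gene they reached. Ranks ran from the highest value, by -log10 q unless fold is named. Calls per gene were compared with Fisher's exact test and Benjamini-Hochberg adjustment over all genes, and widths with an exact permutation test, both two-sided, in Python 3.11.15 with SciPy 1.17.1, pandas 2.3.3 and NumPy 2.4.6. The script was tested on simulated data. Replicates were different mice.

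The genes named were the 8 members, those of the other SUMO genes called in a WT sample, in all 3 *Sirt7*-/- samples or in none, genes with a start within 3000 bp of a member's peak, and the 5 genes most like *Sumo2* in rank. Some genes of the lists that fall under this rule are counted but not reported here by name. The members and lists were chosen with earlier results of these data known. Same-numbered samples of the genotypes were checked for pairing. The correlations of their deviations from the genotype means over genes were 0.0281, 0.0197 and 0.00766, all under 0.1. Values this small could not settle whether the samples were paired, and the main tests assumed no pairing. Other distances, thresholds, list lengths and assignments were tried, as was leaving out each sample.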

Additional observations from a re-analysis of the deposited data

How the results depend on the processing

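Distances of 1000 and 5000 bp, the peak midpoint in place of any base, and every start of the promoter table (chosen after seeing the data) left all counts of the 8 genes at their values. The excess of *Sirt7*-/- over WT samples at *Sumo2*, 1 sample, became 0 with a -log10 q of at least 2, with a width of at least 500 bp and with at most the best 294 or 64 peaks of each list (at 294, WT replicate 3 kept its 64). Genes called in at least 1 sample, 5 of 8, became 2 with a width of at least 500 bp, beside 10.6% of all genes. They became 1 with the best 294 peaks (4.65% of all genes) and 0 with the best 64 (1.41%). Genes called in all 3 *Sirt7*-/- samples, 1, became 0 under each of these 4 settings, and genes called in a WT sample, 1, became 0 with the best 64. These settings keep fewer peaks by construction.

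Leaving out 1 sample at a time gave 0 to 2 for the excess at *Sumo2* (Fisher's exact p = 0.4 without WT replicate 2 or 4, otherwise 1), 3 to 5 for genes called in at least 1 sample and 1 to 3 for genes called in all remaining *Sirt7*-/- samples. For genes called in all of those and no WT sample it gave 0 to 2. The range at *Sumo2* is fixed by its calls, since leaving out a called sample moves the excess by 1. *Sumo2* stayed called in every remaining *Sirt7*-/- sample each time. The share of all genes was not analysed here for these settings. The count of 3 came without *Sirt7*-/- replicate 2, when *Sumo2*, *Uba2* and *Senp1* were called in both remaining samples and *Uba2* and *Senp1* in no WT sample. The *Sumo2* width difference ranged from -5 bp (without *Sirt7*-/- replicate 3) to 90.5 bp, and was 153 bp between the single peak per genotype with a -log10 q of at least 2, a value with no test. With the replicate block the excess at *Sumo2* stayed at 1 sample (exact p = 1). Whether same-numbered samples shared a preparation is not given by the labels, and the check of pairing could not settle it, as all correlations were small. *Sirt7*-/- replicates 2 and 3 correlated best with the WT sample of the same number (0.0281 and 0.0197). *Sirt7*-/- replicate 4 correlated best with WT replicate 3 (0.00907, against 0.00766 with WT replicate 4). The median percent rank was 66.7 by -log10 q and 68.4 by fold. The lists hold no signal below the calling threshold, which limits every absence of a peak, above all in WT replicate 3 with 64 peaks.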

Other observations

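The 5 samples with a promoter peak at *Sumo2* were also those with a peak beside *Zc3h4*, which encodes a zinc finger protein of nuclear RNA turnover and is the gene next to *Sae1*. They are all the samples but WT replicate 3, whose list holds 64 peaks. The pattern of *Sumo2* was shared by 95 other protein-coding genes, so it sets up no link between these loci. *Zc3h4* was chosen after its values were seen. The *Zc3h4* peak was 1912, 1976 and 1948 bp wide in *Sirt7*-/- replicates 2, 3 and 4, and 893 and 506 bp wide in WT replicates 2 and 4. By -log10 q it stood at 171 of 2840, 219 of 2045 and 313 of 2591 in *Sirt7*-/-, and at 318 of 906 and 262 of 294 in WT. The *Sirt7*-/- widths lay above the WT widths without overlap, and the median widths of those lists were 480, 456 and 465 bp against 373 and 297 bp. No test was made, since the gene was chosen for its place and after seeing these values.

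*Ufm1*, the modifier of the UFM1 pathway, held the strongest peak among the comparison genes. Its peak was 30th of 2840 in *Sirt7*-/- replicate 2, with a fold of 6.26, and was also called in *Sirt7*-/- replicate 4 and in WT replicate 2, where it stood at 173 of 906. It was not called in *Sirt7*-/- replicate 3.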
